A study of Mus musculus with 2 samples.

Results

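The genes of programmed cell death and of the p53 response were examined in cells of the mouse otocyst, the epithelial vesicle that becomes the inner ear. The set was a fixed list of 47 genes, made up of the Bcl2 family, the caspases with their activators and inhibitors, the death receptors, and the p53 family with its regulators and some targets. A gene was taken as measured where a probe set named that gene and no other. This held for 43 of the 47 genes, with 112 of the 34958 probe sets that name 1 gene. Bax, Trp53, Bnip3l and Perp2 had no such probe set and were not analysed here.

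RNA came from mouse embryos at E10.5, the age in days after conception, that were heterozygous for the reporter transgene Tg(ETAR-EGFP)14Imeg. Per the labels, the ventral and dorsomedial parts are the main sites of EGFP, whereas the dorsolateral part lacks it. The dissected otocysts were dissociated with trypsin, propidium iodide, a dye that enters dead cells, was added, and the cells were sorted by EGFP into an EGFP-positive and an EGFP-negative population with 1 array each, called positive and negative cells from here on. Both populations carry the same transgene, and neither a control without it nor the number of embryos pooled is given in the sources used here. Whether cells that took up propidium iodide were gated out is likewise not given in the sources used here. As each population was hybridised to a single array, replicate error could not be estimated, no p-value is given, and each statement describes these 2 libraries.

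Cell death by the mitochondrial route is set by the balance within the Bcl2 family. BH3-only proteins sense stress, protective members such as Bcl2 and Mcl1 hold them in check, and the effectors Bax, Bak1 and Bok permeabilise the outer mitochondrial membrane. Released cytochrome c then joins Apaf1 to activate caspase-9, while the death receptors start a parallel route through Fadd and caspase-8. The protein p53 feeds into both routes by inducing genes of death and of growth arrest. In the otocyst, cells die at restricted sites while the vesicle is shaped and while neuroblasts leave its epithelium.

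Each signal is a MAS5 intensity in arbitrary units, with a trimmed mean of 100 on both arrays as deposited. Signals at or below a floor were taken as not distinguishable from background. This floor was 12.3 on the positive and 12.4 on the negative array, and was the higher of the array's 40th percentile and its brightest silent bacterial control. Each gene is represented by its brightest probe set. The log2 ratio is that of positive over negative cells, so values below 0 mean a higher signal in negative cells, and a limit of 2-fold is a log2 ratio of 1 in size. Of the 13098 genes above the floor on at least 1 array, 2.96% were at least 2-fold higher in positive and 7.02% at least 2-fold higher in negative cells. Of all calls, 29.7% were thus towards positive cells, against 40.1% after quantile normalization and 14.7% after centring on the hybridisation controls. That centring lowers every log2 ratio by 0.25, so ratios between 0 and 0.25 below change sign under it. As a partial measure of technical error, the log2 ratios of different probe sets of 1 gene had an SD of 0.304 over 5524 genes, and of 0.399 where the mean signal was under 50. This SD leaves out differences between embryos, sorts and hybridisations.

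The 2 libraries differed in markers of cell types. Among markers of otic epithelium, 12 of 15 were at least 2-fold higher in positive cells, although the label calls both populations epithelial. Oc90, on the same list, was instead higher in negative cells, with 939.8 in positive and 1405.7 in negative cells (-0.58). Of the mesenchymal markers, 14 of 16 were at least 2-fold higher in negative cells, with summed signals of 580.2 and 7576.5 in positive and negative cells. The leukocyte markers summed to 152.7 and 2052, with all 15 at least 2-fold higher in negative cells. In positive cells 11 of these 15 were at or below the floor, including the defining markers Ptprc, Cd68 and Spi1, and none was in negative cells. Endothelial markers summed to 141.8 and 1915, with 12 of 14 at least 2-fold higher in negative cells. The erythroid and hindbrain lists had 10 of 10 and 9 of 11 genes above a floor at least 2-fold higher in negative cells. Their summed signals in positive and negative cells were 3021 and 21418 for the erythroid and 128.8 and 2786 for the hindbrain list. The neural crest list had 6 of 8, with 2 at least 2-fold higher in positive cells. Of 10 otic neuroblast genes above a floor, 4 had the higher signal in positive and 6 in negative cells. Of these, 2 were at least 2-fold higher in positive and 1 in negative cells. In sorted bulk RNA, fewer cells of a type and less RNA per cell cannot be told apart.

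Most death genes were at similar levels in both populations. Of the 43 measured genes, 34 were above both floors, 3 were above it in negative cells only, none in positive cells only and 6 in neither. Of all 18194 genes, 6.55% were above the floor in negative cells only, 2.55% in positive cells only and 28% in neither. Among the 37 above a floor, 1 was at least 2-fold higher in negative cells and none in positive cells, against 7.02% and 2.96% of all genes. The median log2 ratio of the 37 genes was 0.05, beside 0.01 for all 13098 genes. With a limit of 1.5-fold, 5 genes were higher in negative and 1 in positive cells, beside 13.5% and 7.99% of all genes. Of the 34 genes above both floors, 26, or 76.5%, had a ratio smaller than the SD between probe sets, beside 61.2% of the 11442 such genes in all. The largest ratios were those of Sesn1 towards negative and of Bmf towards positive cells.

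**Figure D1:**
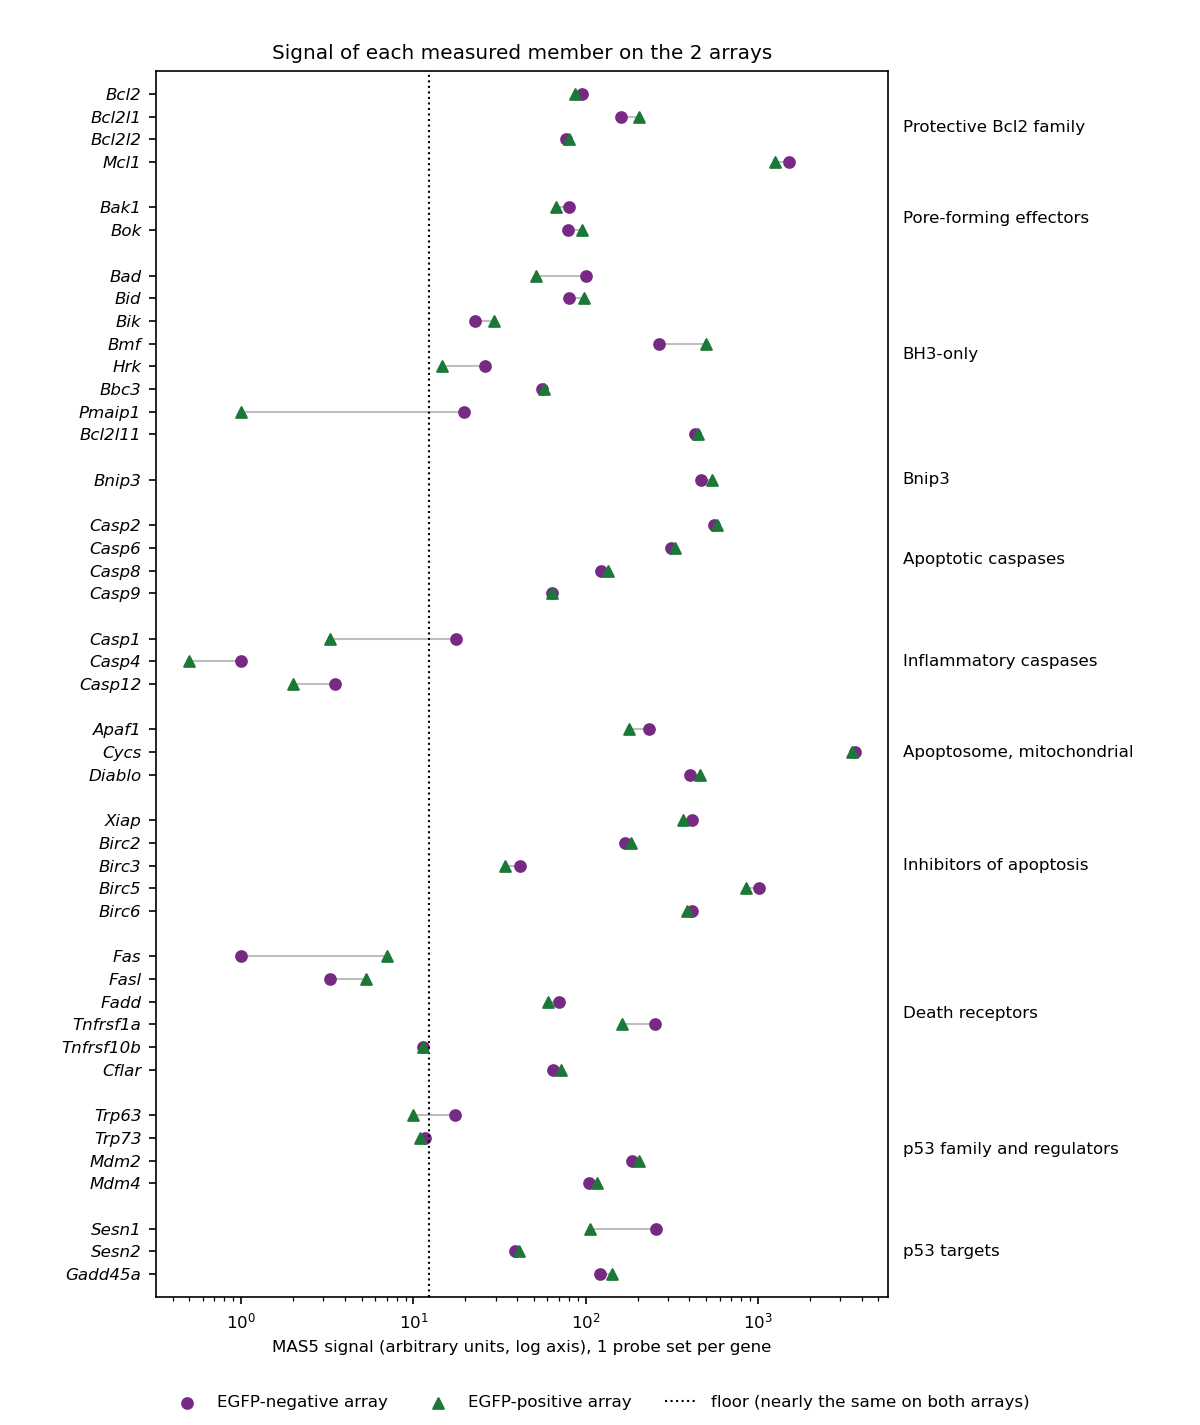
MAS5 signal on a log axis of the brightest probe set of each of the 43 measured genes, with a triangle for the EGFP-positive and a circle for the EGFP-negative array and a dotted line at the floor. Most pairs above the floor nearly coincide, whereas Sesn1 and Bad lie to the right in EGFP-negative cells and Bmf in EGFP-positive cells. The widest pairs have a point below the floor. They are Pmaip1 (1.0 and 19.6 in EGFP-positive and EGFP-negative cells), Fas (7.0 and 1.0) and Casp1 (3.3 and 17.7). In all, 6 genes have both points below the floor.

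**Figure D2:**
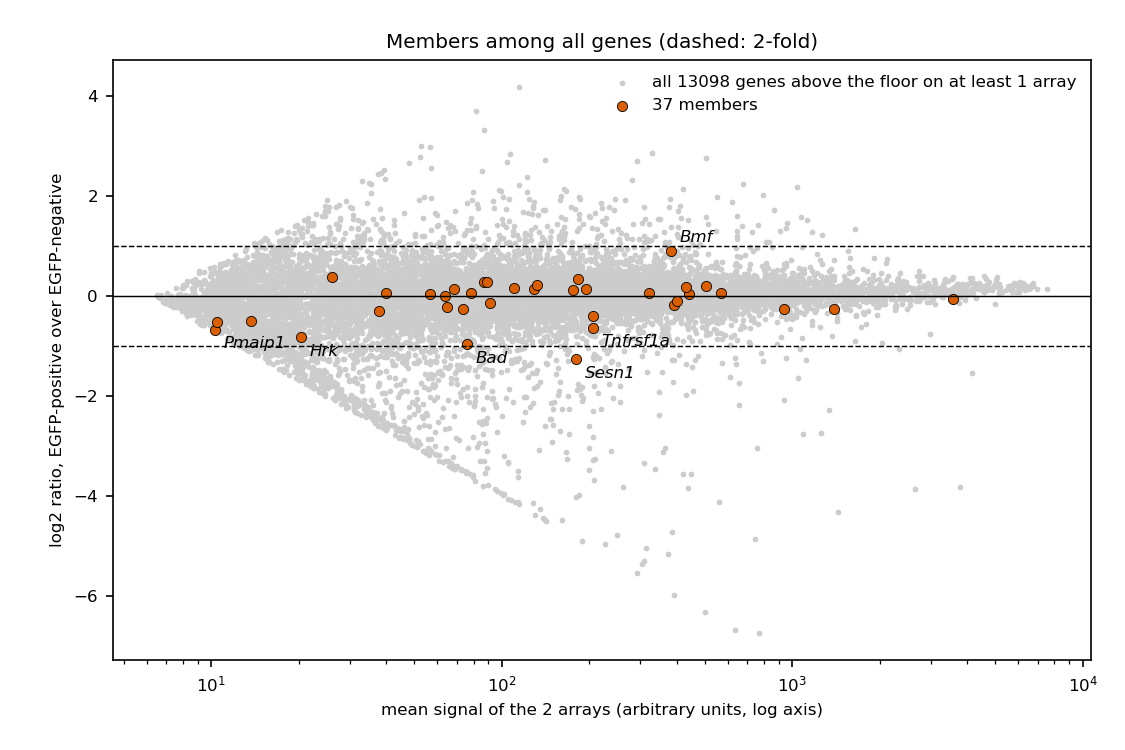
Log2 ratio of EGFP-positive over EGFP-negative signal against the mean signal of both arrays, with 13098 genes in grey and the 37 members above a floor in orange; dashed lines mark 2-fold, and the sloping edges of the grey cloud at low signal come from the floor. The members lie between -1.27 and 0.91, and Sesn1 alone is past a dashed line.

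The regions before the transcription starts of Sesn1 and Bmf are shown because these genes had the largest ratio in each direction and because both have several annotated starts. RefSeq promoter windows on GRCm38.p6 were used for 41 of the 47 listed genes, in 56 windows, with none used for Bik, Bnip3l, Perp2, Pmaip1, Tnfrsf10b and Trp63. Windows of listed genes on 1 chromosome were left out, so a gene without a window here may still have an annotated start. The shares over all windows below had no such filter. Each sequence gives the 250 bases before a start, 5′ to 3′, and capitals mark GGGCGG, a GC box, or CCAAT, on either strand.
Sesn1 upstream start, chr10:41810324-41810573, plus strand: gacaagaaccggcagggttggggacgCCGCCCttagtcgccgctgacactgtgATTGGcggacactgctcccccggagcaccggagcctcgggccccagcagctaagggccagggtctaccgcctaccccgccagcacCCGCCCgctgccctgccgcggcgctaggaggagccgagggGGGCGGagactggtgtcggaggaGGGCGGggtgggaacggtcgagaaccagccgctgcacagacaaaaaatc
Sesn1 downstream start, chr10:41887189-41887438, plus strand: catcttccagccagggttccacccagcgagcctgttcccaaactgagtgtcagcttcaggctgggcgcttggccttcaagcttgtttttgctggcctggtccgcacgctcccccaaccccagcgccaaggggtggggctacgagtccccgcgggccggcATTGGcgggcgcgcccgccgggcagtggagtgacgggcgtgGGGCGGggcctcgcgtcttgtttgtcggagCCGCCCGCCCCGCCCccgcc
Bmf most upstream start, chr2:118549687-118549936, minus strand: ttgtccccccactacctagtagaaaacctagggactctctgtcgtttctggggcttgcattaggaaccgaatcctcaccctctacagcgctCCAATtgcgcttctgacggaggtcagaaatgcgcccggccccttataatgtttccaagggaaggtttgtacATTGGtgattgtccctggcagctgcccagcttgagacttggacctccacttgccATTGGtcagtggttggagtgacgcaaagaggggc
Bmf middle start, chr2:118547600-118547849, minus strand: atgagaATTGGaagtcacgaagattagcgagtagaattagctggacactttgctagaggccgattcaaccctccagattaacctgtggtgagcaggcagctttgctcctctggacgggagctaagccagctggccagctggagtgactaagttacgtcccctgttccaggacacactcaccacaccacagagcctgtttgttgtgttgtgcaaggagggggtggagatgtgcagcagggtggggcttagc
Bmf most downstream start, chr2:118544588-118544837, minus strand: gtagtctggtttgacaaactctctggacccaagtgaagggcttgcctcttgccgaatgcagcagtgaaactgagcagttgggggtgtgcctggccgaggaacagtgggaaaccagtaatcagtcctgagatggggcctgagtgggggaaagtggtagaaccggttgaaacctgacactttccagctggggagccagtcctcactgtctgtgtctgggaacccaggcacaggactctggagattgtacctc
Both Sesn1 windows hold 4 matches to GGGCGG, some of which overlap each other in the downstream window, and 1 match to CCAAT. None of the 3 Bmf windows holds GGGCGG, and CCAAT was found 3 times in the most upstream, once in the middle and not at all in the most downstream window. The content of G and C was 70.0% and 71.2% in the Sesn1 windows and 54.0% to 55.6% in those of Bmf. On either strand, GGGCGG occurred in 33 of the 56 windows, or 58.9%, beside 32.7% of all 32851 windows, and CCAAT in 33.9% beside 33.8%. The FoxO core TGTTTAC was found in 5 windows, or 8.93%, beside 3.17% of all, and these belong to Bbc3, Bcl2l11, Mdm2 and Casp4. The windows of Casp4 overlap and share 1 match, which is thus counted more than once. A single consensus p53 decamer was present in 8 windows, or 14.3%, beside 7.13% of all, among them 1 window each of Sesn1 and Bmf. The full p53 site, a pair of decamers close together, was in no window of these genes and in 0.0639% of all. The median G and C content was 59.8% in the 56 windows and 52.4% in all. These matches describe letters in a window and say nothing of binding.

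Sesn1, a p53 target that encodes sestrin-1, an inhibitor of mTORC1 signalling under stress, was the gene past 2-fold. Its signal was 106.0 in positive and 255.6 in negative cells, on a probe set of the type that matches several transcripts, which is 2.41-fold higher in negative cells with a log2 ratio of -1.27. The 2 further probe sets above the floor went the same way. The brighter of these, also of the type that matches several transcripts, had 87.9 against 172.5 (-0.97). The dimmer, which is not of that type, had 55.6 against 102.6 (-0.88). All 3 thus had the lower signal in positive cells, but only the brightest passed 2-fold. Its remaining probe set, at 7.2 and 12.0, was below both floors. Sesn2, which encodes the related sestrin-2, had 40.8 in positive and 39.0 in negative cells, a log2 ratio of 0.07. The paralogs thus differed in ratio. The mesenchymal, leukocyte, endothelial, erythroid and hindbrain marker lists were higher in the same library as Sesn1, with the summed signals given above. The part of those cells in the ratio of Sesn1 was not tested.

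Among the other p53 targets of the set, Gadd45a, a growth arrest and DNA damage response gene, had signals of 142.4 in positive and 121.4 in negative cells, a log2 ratio of 0.23. The p53 regulators were close to equal. Mdm2, the ubiquitin ligase that degrades p53 and is itself induced by it, had 204.7 in positive and 185.3 in negative cells. Mdm4, a relative of Mdm2 that restrains p53 activity, had 116.9 and 103.9. The log2 ratios were 0.14 and 0.17, and all probe sets of both genes above the floor lay between 0.02 and 0.17. Of the p53 paralogs, Trp63, a regulator of stratified epithelium, had 10.0 in positive cells, under the floor, and 17.4 in negative cells, at least 1.41-fold higher there. Its other 3 probe sets, like both of Trp73, were at or below the floor on both arrays. Perp, a p53 and p63 target of desmosomes that is not on the list and was looked up after the other values were seen, had 67.3 and 67.7.

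The protective Bcl2 relatives were all above the floor in both populations and within 1.5-fold. Among all genes, 78.5% were within 1.5-fold. Mcl1, which is short-lived and guards many embryonic cells, had a signal of 1261 in positive and 1518 in negative cells, a log2 ratio of -0.27. All 6 of its probe sets had ratios below 0, from -0.27 to -0.01. Bcl2l1, which encodes Bcl-xL, had 204.1 in positive and 160.8 in negative cells, a ratio of 0.34. Its 3 probe sets above a floor did not go the same way, ranging from -0.47 to 0.63. Bcl2 had 86.5 and 95.6 (-0.14), with 5 probe sets from -0.93 to 0.70. Bcl2l2, which encodes Bcl-w, had 80.1 and 76.4, a ratio of 0.07. The median of these 4 ratios was -0.04. For Bcl2 and Bcl2l1 the direction thus depended on the probe set.

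The pore-forming effectors differed little. Bak1 had a signal of 66.8 in positive and 80.1 in negative cells (-0.26). Bok, an effector that is less dependent on the protective members, had 95 and 78.6 (0.27). These ratios had opposite signs and both were under the SD between probe sets. Bnip3, a hypoxia-induced mitochondrial protein that also takes part in mitophagy, had 540.6 in positive and 467.2 in negative cells, a ratio of 0.21.

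Of the 8 BH3-only genes, 4 were within 1.5-fold, beside 78.5% of all genes, and none was past 2-fold. Bmf, which encodes a BH3-only protein held at the cytoskeleton and released on loss of attachment, had 500.5 in positive and 265.8 in negative cells on a probe set of the type that matches several transcripts. This is 1.88-fold higher in positive cells, a log2 ratio of 0.91. A second probe set above the floor had 28.9 and 29.3, a ratio of -0.02, and the third was below both floors. The difference in Bmf thus rested on 1 probe set. Bik, a BH3-only protein of the endoplasmic reticulum, had 29.5 in positive and 22.7 in negative cells (0.38), and its dimmer probe sets had ratios of 0.44 and 1.06. Both of these are bounds, since the signals in negative cells, 11.1 and 5.9, lay below the floor.

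Bad, which encodes a BH3-only protein controlled by growth factor signalling, went towards the other library. Its signal was 51.6 in positive and 100.6 in negative cells, 1.95-fold higher in the latter (-0.96). Its other probe set had 53.8 and 68.7 (-0.35). Hrk, a BH3-only gene known from neurons deprived of trophic factor, had 14.7 in positive and 26 in negative cells (-0.82), both close to the floor. Pmaip1, which encodes Noxa, a p53-induced antagonist of Mcl1, had 1.0 in positive and 19.6 in negative cells, at least 1.59-fold higher in the latter. For Bad, Hrk and Pmaip1 the signals were thus lower in positive cells. The mesenchymal, leukocyte, endothelial, erythroid and hindbrain marker lists were lower there too. The part of those cells in the ratios of Bad, Hrk and Pmaip1 was not tested.

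The remaining BH3-only genes were near equal. Bcl2l11, which encodes Bim, had a signal of 448.8 in positive and 433.5 in negative cells, and its 5 probe sets had ratios from -0.30 to 0.14. Bbc3, which encodes the p53-induced protein Puma, had 57.5 and 55.7 (0.05). Bid, which caspase-8 cleaves to link death receptors to mitochondria, had 98.0 and 80.3 (0.29). The BH3-only genes introduced here as p53-induced, Bbc3 and Pmaip1, thus had a ratio of 0.05 and a bound of -0.67. No full list of p53 targets within the BH3-only group was drawn up.

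**Figure D3:**
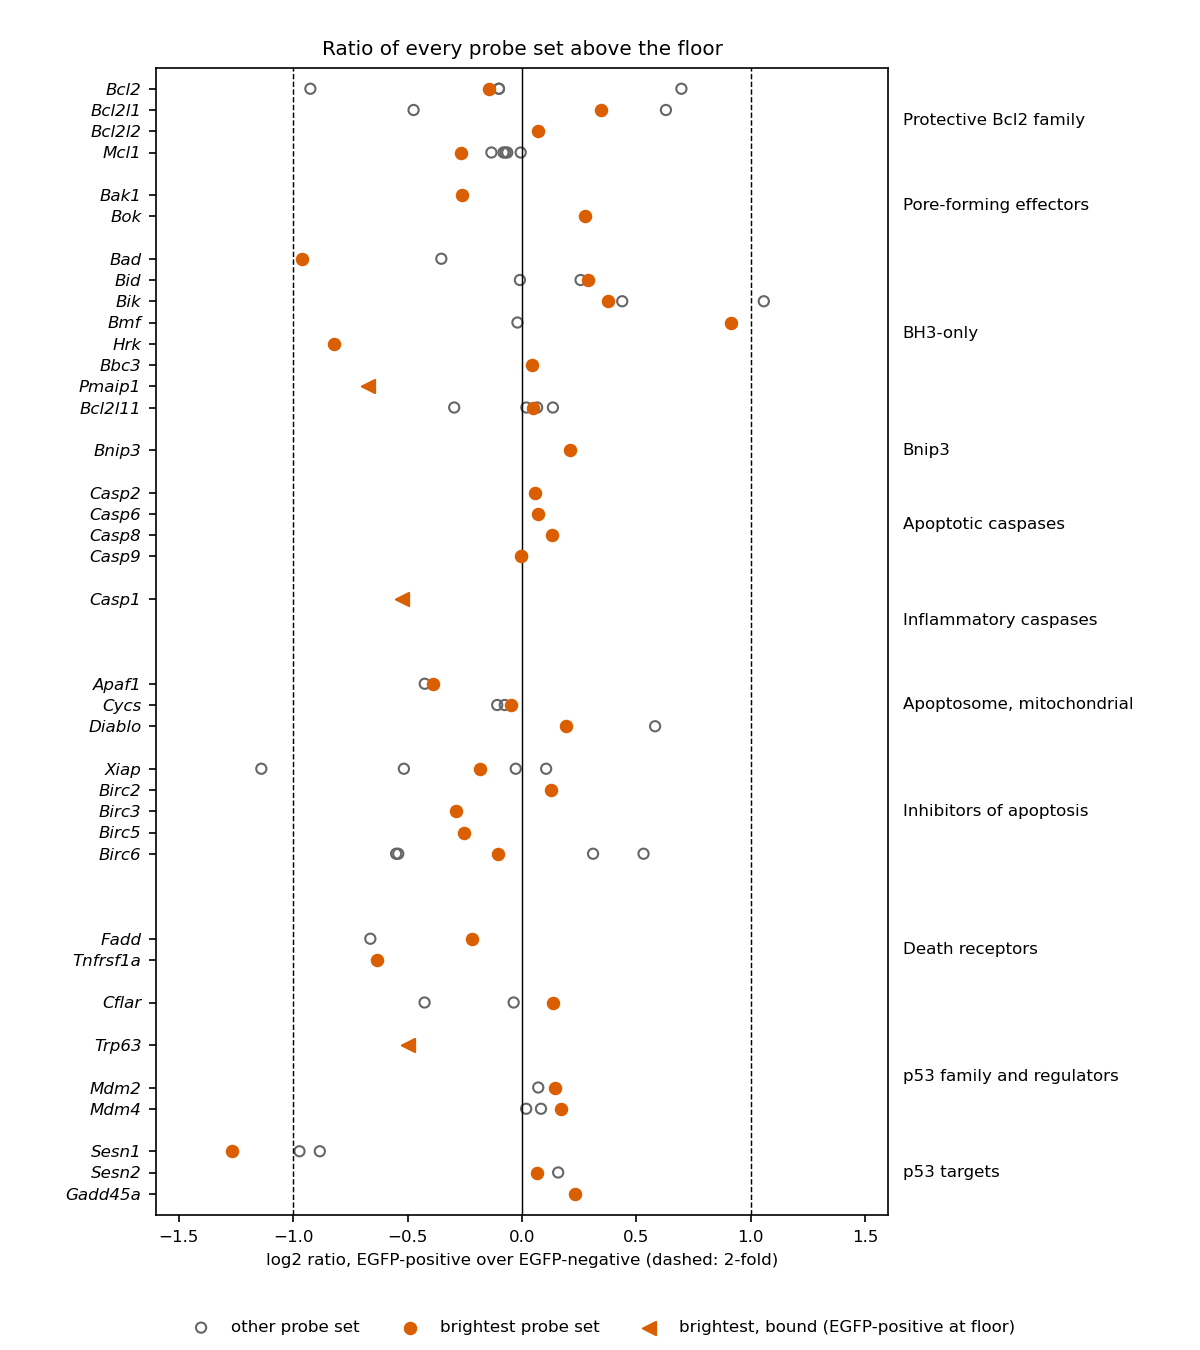
Log2 ratio of EGFP-positive over EGFP-negative signal for each of the 80 member probe sets above the floor on at least 1 array; filled symbols are the brightest probe set of a gene, as a left-pointing triangle where the ratio is a bound, open circles are other probe sets, bounds included, and dashed lines mark 2-fold. The 3 Sesn1 probe sets lie together on the left, between -1.27 and -0.88, whereas those of Bmf, Bcl2, Xiap and Birc6 are spread apart.

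Of the 20 genes with several probe sets above a floor, 11 had all of them on the same side of 0, beside 56% of all such genes. Among the 80 probe sets 3 were past 2-fold, beside 8.61% of all 24255 probe sets above a floor that name 1 gene. These were the brightest of Sesn1, 1 of Bik and 1 of Xiap, the last pair being bounds on dim probe sets.

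The apoptotic caspases had near equal signals in both populations. Casp2, an initiator that responds to p53 signalling and mitotic errors, had a signal of 579.3 in positive and 556.8 in negative cells. Casp6, an executioner, had 329.3 and 313.7. Casp8, the initiator of the death receptor route, had 135.0 and 123.1. Casp9, the initiator of the mitochondrial route, had 63.9 and 64.1. The 4 log2 ratios lay between -0.0045 and 0.13, each smaller than the SD between probe sets, with a median of 0.06. The inflammatory caspases were below or near the floor. Casp1, which activates interleukin-1 beta in leukocytes, had 3.3 in positive and 17.7 in negative cells, at least 1.44-fold higher there, in the library with the higher leukocyte markers, whose part was not tested. Casp4 and Casp12 did not exceed 3.5 on either array.

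The mitochondrial factors were above both floors. Cycs, which encodes the somatic cytochrome c of respiration and of the apoptosome, had 3523 in positive and 3643 in negative cells (-0.05). Diablo, whose product relieves caspases of their inhibitors, had 458.3 and 401.2 (0.19). Apaf1, the scaffold of the apoptosome, had 177.9 in positive and 233.1 in negative cells (-0.39). Its second probe set was at -0.43, so both lay beyond the SD between probe sets in the same direction.

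Of the inhibitors of apoptosis, 4 of 5 had the higher signal in negative cells, beside 48.6% of all genes, and all 5 were within 1.5-fold, beside 78.5%. Xiap, the direct inhibitor of caspase-9 and the executioners, had 367.3 in positive and 416.7 in negative cells (-0.18). Its 5 probe sets above a floor ranged from -1.14 to 0.11. Birc5, which encodes survivin, a protein of the mitotic chromosomal passenger complex, had 851.9 and 1017 (-0.25). Birc6, a large ubiquitin ligase, had 386.7 and 415.4 (-0.10), and Birc3, a regulator of NF-kappaB signalling, had 34.1 and 41.7 (-0.29). Birc2, the close relative of Birc3, had 183.8 and 168.3 (0.13), a sign that turned to -0.12 after centring on the hybridisation controls. Each of the 5 ratios was under the SD between probe sets over all genes, 0.304. That of Birc5 was past the SD of 0.243 for genes with a mean signal over 200.

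Of the 6 genes of the death receptor group, 3 were above the floor on both arrays and 3 on neither. Among all genes, 28% were above the floor on neither array. Tnfrsf1a, the main receptor for tumour necrosis factor, had 162.1 in positive and 251.3 in negative cells, 1.55-fold higher in the latter (-0.63), on its single probe set. Fadd, the adaptor of death receptors, had 60.1 and 69.9 (-0.22), and its dimmer probe set was at -0.66. Cflar, which encodes the caspase-8 inhibitor cFLIP, had 71.5 and 65.0 (0.14), with 3 probe sets from -0.43 to 0.14. Fas, its ligand gene Fasl and the TRAIL receptor gene Tnfrsf10b were at or below the floor on both arrays, with no signal above 11.3. Tnfrsf1a thus had the largest ratio of the group, towards the library with more mesenchymal, leukocyte, endothelial, erythroid and hindbrain signal. Whether those cells account for this ratio was not tested.

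Other genes of the pathway were taken from lists drawn up beside the members. Of 30 further p53 targets, 28 were above a floor, with a median log2 ratio of 0.21. Of these, 2 passed 2-fold towards positive and 3 towards negative cells, beside 2.96% and 7.02% of all genes. Cdkn1a, which encodes the cell cycle inhibitor p21, had 419.9 in positive and 110.6 in negative cells, 3.80-fold higher in the former (1.92). Its second probe set was at 2.49, so both were past 2-fold. Eda2r, a receptor of the tumour necrosis factor family, had 33.2 in positive cells and 11.3, under the floor, in negative cells, at least 2.68-fold higher. In the other direction, Plk3, a stress-responsive kinase gene, had 2.1 in positive and 44.6 in negative cells, at least 3.63-fold higher in the latter. Its relative Plk2 had 108.7 and 230.4 (-1.08). Gadd45b, a relative of Gadd45a, had 19.1 and 43.8 (-1.20), but 1 of its 3 probe sets was at 0.87. Of the 28 targets, 21 had the higher signal in positive and 6 in negative cells, beside 51.2% and 48.6% of all genes, but the list's median turned to -0.03 after centring on the hybridisation controls. The calls of Eda2r, Gadd45b and Plk2 were lost with 16 units added in place of a floor, at 0.85, -0.77 and -0.98. That of Eda2r was also lost with a common floor of 20, at 0.73, and those of Plk3 and Gadd45b with a floor at the 60th percentile, at -0.42 and -0.40.

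Of 23 genes that modify p53, 22 were above a floor and none was past 1.5-fold, with a median of 0.09. Among all genes, 78.5% were within 1.5-fold and 9.99% were past 2-fold. The largest ratio was that of Chek1, a checkpoint kinase gene, with 523.8 in positive and 371.6 in negative cells (0.50), although its other probe sets reached down to -0.88. Of 9 measured further Bcl2 relatives, a list that also holds Bcl2l2, 7 were above a floor and all of these were within 1.5-fold, Bnip1, which encodes a SNARE protein of the endoplasmic reticulum, having the largest ratio among those above both floors, at 115.9 and 102.3 (0.18). Of 22 measured execution genes, Cycs among them, 19 were above a floor and none was past 2-fold. The largest ratio was that of Bag3, a co-chaperone gene, with 40.2 and 77.2 (-0.94).

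Of 22 measured further death receptor genes, 19 were above a floor, with a median of -0.04. Tnfrsf12a, which encodes Fn14, the receptor of the cytokine TWEAK, was at least 2-fold higher in positive cells, at 162.1 against 37.4, which is 4.33-fold (2.12). Its second probe set was at 2.36. Ripk3, the kinase of necroptosis, had 36.3 in positive and 83.8 in negative cells (-1.21). Cd40, a receptor of antigen-presenting cells, had 13.5 and 29.3 (-1.12). The list thus held 1 gene past 2-fold towards positive and 2 towards negative cells, beside 2.96% and 7.02% of all genes. With 16 units added in place of a floor, both calls towards negative cells were lost, Ripk3 at -0.93 and Cd40 at -0.62, and Cd40 was also at -0.55 with a common floor of 20 and at -0.90 after quantile normalization.

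Of 20 measured genes for the uptake of dying cells, 18 were above a floor, with a median log2 ratio of -0.79. Of these, 7 were at least 2-fold higher in negative and none in positive cells, beside 7.02% and 2.96% of all genes. Stab1, a scavenger receptor gene of macrophages and endothelium, had 11.9 in positive cells, under the floor, and 73.5 in negative cells, at least 5.98-fold higher. Megf10, an engulfment receptor gene, had 3.6 and 68.3, at least 5.55-fold higher. Abca1, a lipid transporter gene, had 59.0 and 282.2 (-2.26), and its 3 probe sets ranged from -2.26 to -0.76. Axl, a receptor of phosphatidylserine-bound Gas6, had 12.9 and 58.9 (-2.19), falling to -0.82 with a floor at the 60th percentile. Among the 7, Gas6 and Pros1 were close to the limit, at 13.6 and 27.3 (-1.01) and at 35.4 and 77.0 (-1.12). The signal of Gas6 in positive cells was also near the floor. Whether the calls of Gas6 and Pros1 hold under other settings was not examined. The other 11 genes did not pass 2-fold, and 2 of the 18 had the higher signal in positive cells. All 15 leukocyte markers, 14 of 16 mesenchymal and 12 of 14 endothelial markers were at least 2-fold higher in the same library. Most genes above a floor on the erythroid, hindbrain and neural crest lists were too. The part of any of these cells in the ratios was not tested.

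**Figure D4:**
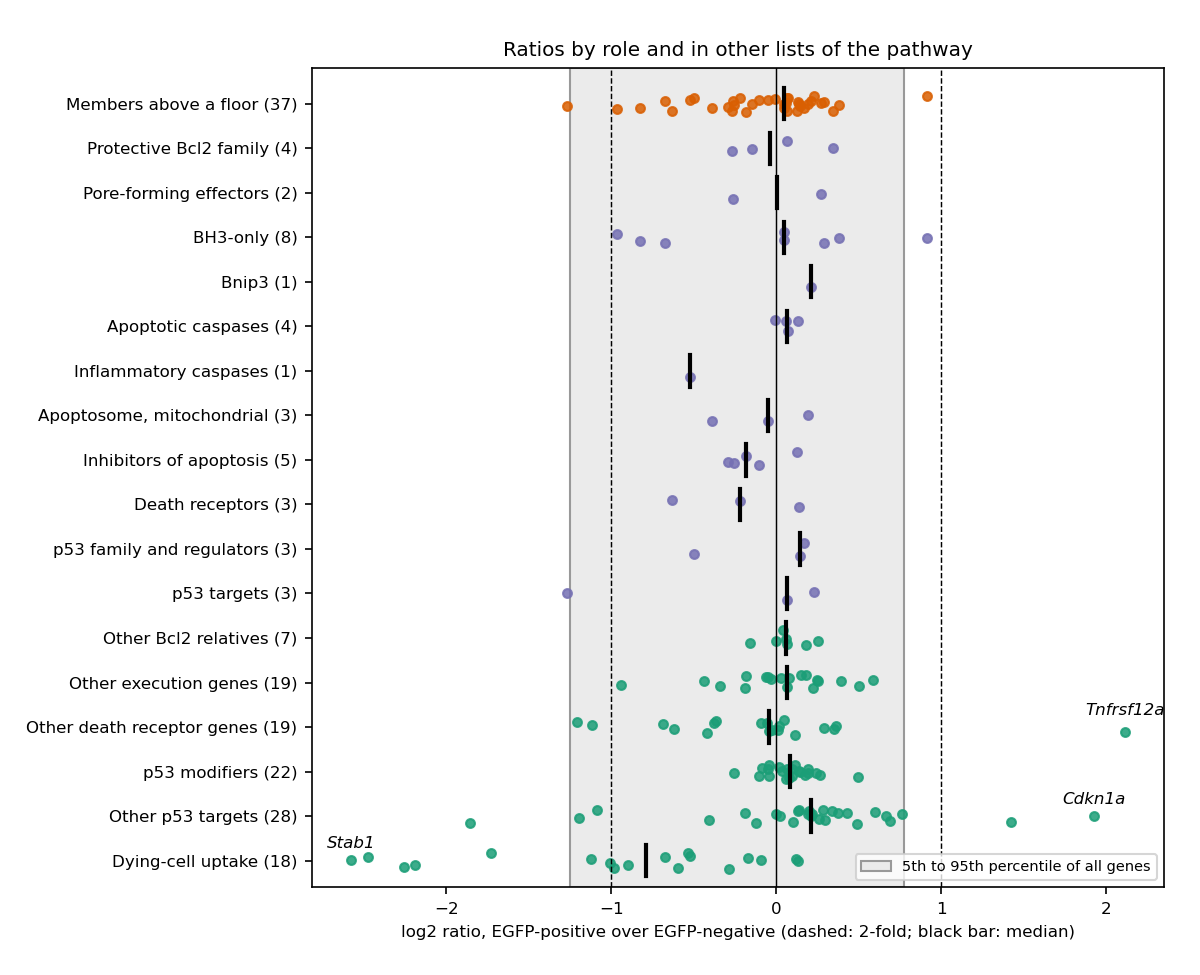
Log2 ratio of EGFP-positive over EGFP-negative signal for the members above a floor, for each role group and for the other pathway lists, with the number of genes in brackets, 1 point per gene, a black bar at the median and a grey band from the 5th to the 95th percentile of all genes (-1.25 to 0.78). The apoptotic caspases cluster at 0, the BH3-only genes spread from -0.96 to 0.91, and the list for uptake of dying cells has its median at -0.79.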

How the data were processed

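The authors deposited 1 intensity, a MAS5 signal on a linear scale, for each of 45101 probe sets on each of 2 arrays. Their processing notes at GEO name MAS5 5.0. No stated scaling target is known here, but the 2% trimmed mean was 100 on both arrays as deposited. Probe sets took their gene from the platform annotation, with symbols updated by gene identifier through the GRCm38.p6 RefSeq table. Of the probe sets, 34958 had 1 gene, 932 had several and were set aside, and 9211 had no gene in that table. The floor rests on 27 bacterial control probe sets and the 40th percentile. Genes at the floor on both arrays were left out, and where 1 signal was at the floor the ratio is a bound. Every member with a probe set is named in the text. Of each other pathway list, up to 4 genes past 2-fold in each direction are named, or the largest ratio where none passed. Gas6 and Pros1 are named beyond that rule, as their ratios lie near the limit. Members, lists and rules were chosen with earlier results of these data known. Computation used Python 3.11.15 with pandas 2.3.3 and numpy 2.4.6, and was tested on simulated data. Alternatives changed the floor, scaling, probe set and fold limit. The number of arrays limits the precision.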

Additional observations from a re-analysis of the deposited data

How the results depend on the processing

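No paired analysis was possible because each population has 1 array and no test was made. Of 12 alternatives, 1 was chosen after seeing the data. The count of death genes past 2-fold towards EGFP-negative cells was 1 and became 2 when 16 units were added in place of a floor (Sesn1 and Pmaip1), 2 after centring on the median gene (Sesn1 and Bad) and 3 after centring on hybridisation controls, which shifts all ratios down by 0.25 (Sesn1, Bad and Hrk). It became 0 with the median over probe sets and 0 with plain probe sets alone, where Sesn1 stood at -0.88 and Bmf at -0.02. With a 1.5-fold limit the counts were 5 towards EGFP-negative and 1 towards EGFP-positive cells. The median of the p53 family group became -0.24 with plain probe sets alone. The log2 ratio of Sesn1 ranged from -1.52 to -0.88, and 21 of 37 members kept their sign under all settings run. Among the other pathway genes, Stab1 and Megf10 shrank to -1.14 and -1.04 with a floor at the 60th percentile, where Eda2r and Cd40 were below it on both arrays. Signals near the floor limit Hrk, Pmaip1, Casp1 and Trp63.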
